A study of Mus musculus with 14 samples.

Results

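Adam9, Adam10, Adam17, Bace1 and Bace2 encode the proteases that make the first cut in the amyloid precursor protein. They were taken from the count tables by gene symbol, as 5 of the 55291 rows that every library shared, and all 5 passed the filter on low counts that left 22150 genes for testing. Polyadenylated RNA was sequenced from single dentate gyri of mouse organotypic cultures, in which the entorhinal cortex and the hippocampus stay together. 8 libraries came from APPko cultures (labelled APP deficient, genotype APP-/-) and 6 from wildtype cultures (C57BL/6J, genotype APP+/+). The slices of both genotypes were cut at postnatal day 4 to 5, kept in serum-containing medium and matured for at least 18 days. The labels give the deficiency to the animals and name no promoter or cell type, and neither the missing App exons nor the strain background of the line is stated. Each library is titled a biological replicate, but the animal behind each culture is not named, and p-values therefore measure the spread from culture to culture.

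In the non-amyloidogenic route an alpha-secretase cuts the amyloid precursor protein within the amyloid-beta sequence and releases a soluble ectodomain. The alpha-secretases are membrane-anchored zinc metalloproteases of the ADAM family; ADAM10 carries most of the constitutive activity in neurons, ADAM17 (also called TACE) is the stimulated sheddase of tumour necrosis factor, and ADAM9 is a further family member. In the amyloidogenic route the aspartic protease BACE1 cuts at the start of the amyloid-beta sequence, and gamma-secretase then frees the peptide. BACE2, the homologue of BACE1, cuts mainly within the amyloid-beta sequence and is known better from pancreas, pigment cells and glia than from neurons.

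The coding stretches of the catalytic sites show where the genes of each family differ in sequence. Each stretch was found by searching for the motif of its family, so part of the likeness within a family follows from that choice. In the alpha-secretases the capitals mark the codons of the zinc-binding motif, whose histidines hold the metal ion and whose glutamate is catalytic. All stretches are given 5′ to 3′ from GENCODE transcripts of GRCm38.
Adam9, chr8:24990320-24990364, minus strand, exon 11: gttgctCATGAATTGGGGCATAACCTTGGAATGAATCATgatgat
Adam10, chr9:70754290-70761591, plus strand, split between exons 9 and 10: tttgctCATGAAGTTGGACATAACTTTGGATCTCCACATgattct
Adam17, chr12:21336726-21336770, minus strand, exon 12: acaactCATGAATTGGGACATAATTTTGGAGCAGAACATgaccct
In the beta-secretases the capitals mark the codons of the motifs around the catalytic aspartates, which lie in exons 2 and 6 of both genes.
Bace1, first site, chr9:45852897-45852920, plus strand: ctggtgGACACGGGCAGTagtaac
Bace2, first site, chr16:97399643-97399666, plus strand: cttgtgGACACTGGAAGCagtaac
Bace1, second site, chr9:45858418-45858441, plus strand: attgtgGACAGTGGGACCaccaac
Bace2, second site, chr16:97415097-97415120, plus strand: attgtgGACAGTGGCACCacgctc

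Of the 45 bases shown, Adam10 shared 32 with Adam9 and 32 with Adam17, and Adam9 shared 30 with Adam17. Bace1 and Bace2 shared 20 of 24 bases at each site. Even so, the longest run that any pair of the 5 genes had in common letter for letter in their transcripts was 20 bases, between Adam17 and Bace1, against a read length of 151 bases. Overlap with other genes touched Adam17 and Bace1. The exons of Adam17 shared 311 bases (4.35% of its exon length) with Iah1 on the opposite strand. Those of Bace1 shared 975 bases (15.4%) with Rnf214, 951 bases (15.0%) with Gm49338 and 135 bases (2.13%) with Gm16536, all on the opposite strand. The strand setting is unknown, and reads of Adam17 or Bace1 cannot be told apart from those of their partners in the shared bases. Of the partners none passed the test between genotypes: Iah1 had 24.4 ± 3.66 CPM in APPko and 19.0 ± 2.53 CPM in wildtype (SD, n = 8 and 6, edgeR adjusted p = 0.094), and Rnf214 had 39.2 ± 2.80 CPM in APPko and 37.9 ± 3.84 CPM in wildtype (edgeR adjusted p = 0.82).

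Total counts ran from 20298058 to 31031126 in APPko libraries and from 16686909 to 29713323 in wildtype libraries. App, the targeted gene (chromosome 16, 84949685 to 85173766, GRCm38), lay between 182 and 231 CPM in APPko and between 679 and 964 CPM in wildtype, a 3.78-fold lower level without overlap in APPko (0.609% of tested genes were lower without overlap), so that every library went with its label. CPM are counts scaled to a common library size with TMM factors, which align libraries on the bulk of their genes. Each count column is named with a final f or m that no label explains: 7 APPko and 3 wildtype libraries carried f, and 1 APPko library and 3 wildtype libraries carried m. The TMM factors of wildtype libraries 2 and 3, both f, were low at 0.852 and 0.847, compared with 0.976 to 1.09 in the other 12 libraries. All 54 markers of 10 cell types had counts in every library. Among them 2 of 6 granule cell markers (Rfx3 and Npy1r) fell in APPko (1.41% of all tested genes fell) and 1 of 7 microglia markers (C1qb) rose (0.944% of all tested genes rose), and no marker of neurons in general, mossy cells and CA fields, astrocytes, oligodendrocytes, their precursors, endothelium, mural cells or meningeal fibroblasts passed.

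Measured per length, Adam10 was the most abundant of the 5 RNAs in both genotypes and Bace2 the least. In TPM, which divide counts by the exon length of each gene, Adam10 stood at 60.6 ± 4.70 in APPko and 81.4 ± 14.9 in wildtype (SD, n = 8 and 6, also for the TPM that follow). Bace1 came next with 32.5 ± 2.17 TPM in APPko and 32.7 ± 3.88 TPM in wildtype, close to Adam9 with 27.6 ± 3.60 TPM in APPko and 30.5 ± 6.85 TPM in wildtype. Adam17 reached 7.11 ± 1.01 TPM in APPko and 7.35 ± 0.813 TPM in wildtype. Bace2 had 2.80 ± 0.625 TPM in APPko and 1.98 ± 0.275 TPM in wildtype. Adam10 exceeded Bace1, Adam9 exceeded Adam17 and Adam17 exceeded Bace2 in 8 of 8 APPko and 6 of 6 wildtype libraries. Bace1 exceeded Adam9 in 7 of 8 APPko libraries but in 3 of 6 wildtype libraries, so these neighbours did not differ beyond their spread in wildtype. The same numbers of libraries kept each order with the longest transcript as the length.

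**Figure D1:**
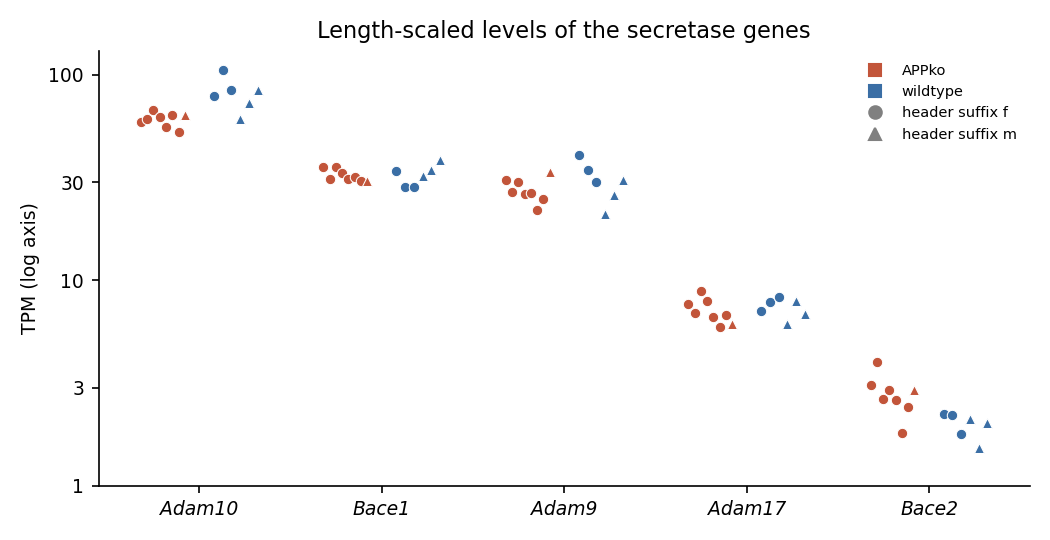
Level of each secretase gene in TPM on a log axis, with 1 point per library, APPko left of wildtype and the header suffix shown by the marker. Adam10 lies above Bace1 in every library, Bace1 and Adam9 overlap, and Bace2 lies lowest at 1.80 to 3.99 TPM in APPko and 1.53 to 2.23 TPM in wildtype.

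Adam10 supplied 63.6 ± 2.73% of the summed alpha-secretase TPM in APPko and 68.2 ± 3.11% in wildtype (SD, n = 8 and 6). Summed over the genes, alpha-secretase RNA exceeded beta-secretase RNA 2.71 ± 0.179-fold in APPko and 3.49 ± 0.833-fold in wildtype. The single libraries ranged from 2.50 to 3.10 in APPko and from 2.59 to 4.83 in wildtype, so that the genotypes overlapped. Bace1 RNA exceeded Bace2 RNA 12.1 ± 2.81-fold in APPko and 16.8 ± 3.44-fold in wildtype. These ratios are descriptions and were not tested.

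APPko was compared with wildtype to ask whether the RNAs of the first-cutting proteases differ when their substrate is missing. Of the 5 genes, Adam10 fell in APPko and Adam9, Adam17, Bace1 and Bace2 did not pass the threshold of an edgeR adjusted p of 0.05. Across all tested genes 2.35% passed, 209 higher (0.944%) and 312 lower (1.41%) (236 higher and 119 lower without TMM scaling), and 20.4% had an unadjusted p under 0.05. No secretase gene separated the genotypes completely, which 1.12% of tested genes did.

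**Figure D2:**
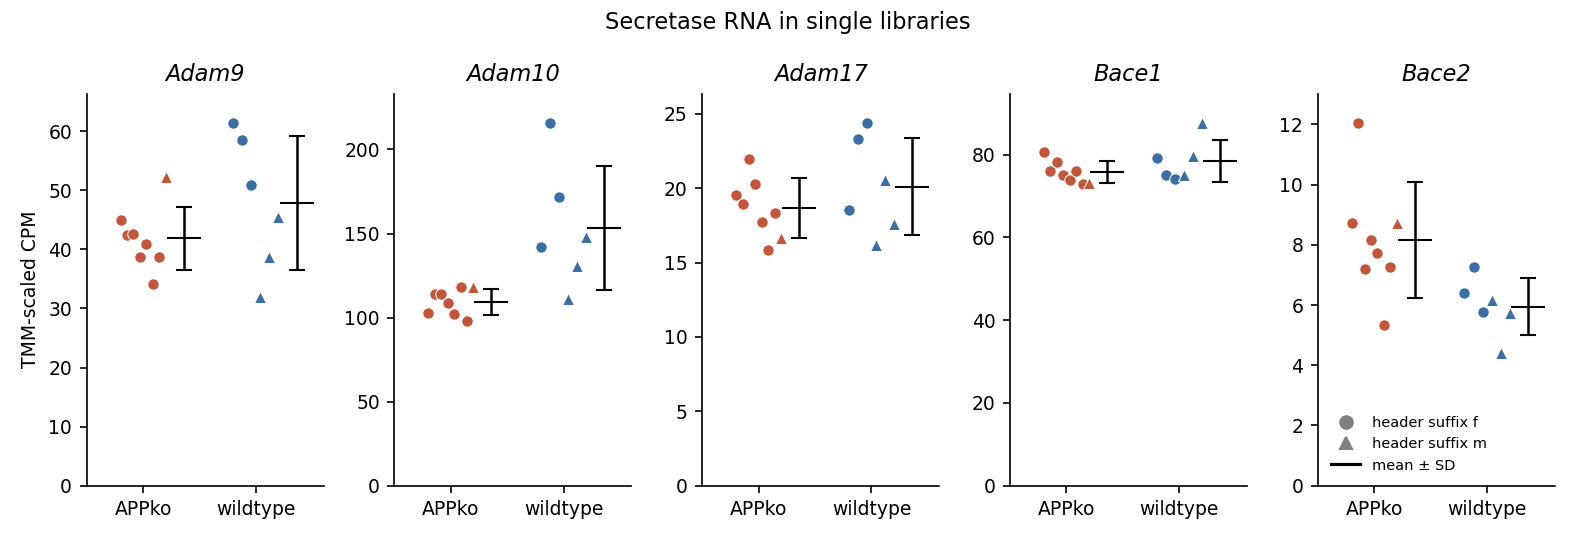
TMM-scaled CPM of each secretase gene in each library, APPko left of wildtype, with the mean and SD beside the points. Adam10 has a narrow range in APPko, 98.1 to 118 CPM, below 5 of the 6 wildtype libraries, while Bace1 keeps to 72.9 to 80.7 CPM in APPko and 74.2 to 87.7 CPM in wildtype.

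Adam10 (ENSMUSG00000054693.14, chromosome 9, 70678997 to 70780229, plus strand) had a lowest value of 98.1, a median of 111 and a highest value of 118 CPM in APPko, against 111, 145 and 216 CPM in wildtype. Only wildtype library 4, an m library at 110.9 CPM, lay within the APPko range, and wildtype libraries 2 and 3 were the highest at 216 and 172 CPM. The means were 110 ± 7.72 CPM in APPko and 153 ± 36.6 CPM in wildtype (SD, n = 8 and 6), a 1.40-fold lower level in APPko (log2 fold change -0.48, SE 0.12, 95% interval -0.74 to -0.23, edgeR adjusted p = 0.044). The coefficient of variation was 7.05% in APPko and 23.9% in wildtype. The direction was the same in every setting tried, but the call was not. Without wildtype libraries 2 and 3 the log2 fold change was -0.28 (edgeR adjusted p = 0.24, where 0.147% of genes passed), and with the trend over transcript GC content removed it was -0.36 (edgeR adjusted p = 0.099, where 0.926% passed). Of the 14 fits without a single library, Adam10 passed in those without wildtype library 1, 4 or 5, where 4.25%, 6.36% and 2.73% of genes passed, and missed the threshold in the other 11 (edgeR adjusted p of 0.010 to 0.12 over the 14, with 0.174% to 6.36% of genes passing). It passed in 7 of 14 other settings, those in which 2.2% to 15.6% of genes passed, and missed in the rest, in which 0.0948% to 1.6% passed. Fewer cells of a type and less RNA per cell cannot be told apart in such samples. The summed level of the 5 general neuron markers, 0 of which passed or had a positive estimate, was 2961 to 3970 CPM in APPko and 3045 to 5393 CPM in wildtype. The largest, Snap25, had 1928 ± 317 CPM in APPko and 2342 ± 872 CPM in wildtype, and Syt1 had 803.1 ± 35.2 and 822.5 ± 120 CPM. Map2 had 619.2 ± 30.0 and 719.3 ± 58.6 CPM, and Tubb3 had 34.1 ± 5.38 and 43.0 ± 6.11 CPM. The 6 granule cell markers summed to 462 to 816 CPM in APPko and 607 to 1195 CPM in wildtype. The largest, Calb1, had 277 ± 89.6 CPM in APPko and 454 ± 184 CPM in wildtype. Prox1 had 151.5 ± 33.4 and 157.9 ± 40.5 CPM, and C1ql2, the 1 positive estimate, had 32.0 and 28.1 CPM. Rfx3 (125.7 and 179.9 CPM) and Npy1r (43.3 and 72.3 CPM) fell past the threshold, as 1.41% of all tested genes did. The part of these cells in the Adam10 result was not tested.

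Bace1 (ENSMUSG00000032086.12, chromosome 9, 45838580 to 45864399, plus strand) was the steadiest of the 5 in TMM-scaled CPM. Its lowest, median and highest values were 72.9, 75.6 and 80.7 CPM in APPko and 74.2, 77.1 and 87.7 CPM in wildtype, and the genotypes overlapped. The log2 fold change was -0.051 (SE 0.075, edgeR adjusted p = 0.76), and its 95% interval of -0.21 to 0.11 corresponds to a level in APPko between 0.866 and 1.08 times that in wildtype. The coefficient of variation of Bace1 was 3.5% in APPko and 6.49% in wildtype. Among 3657 other genes within a factor of 2 of its mean CPM the median was 10.2% in APPko and 18.8% in wildtype, and 0.738% of these genes in APPko and 2.43% in wildtype varied less than Bace1. Wildtype libraries 2 and 3, which were extreme for Adam10, had 75.0 and 74.2 CPM of Bace1 and so lay at the low end of the wildtype range. In TPM, which use no TMM factors, they had 28.49 and 28.43, the lowest Bace1 values of all 14 libraries. Relative to the mean, Adam17 (7.35 ± 0.813 TPM) varied less in wildtype than Bace1 (32.7 ± 3.88 TPM). The steadiness of Bace1 in wildtype therefore depended on the TMM scaling.

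Bace2 (ENSMUSG00000040605.7, plus strand) lies on chromosome 16 at 97356742 to 97442936, 12.2 Mb from App, and is the only secretase gene on the chromosome of the targeted locus. It was sparse, with 160 to 306 counts per library in APPko and 78 to 182 in wildtype. Its lowest, median and highest values were 5.35, 7.95 and 12.1 CPM in APPko and 4.40, 5.96 and 7.26 CPM in wildtype. The single highest value belonged to APPko library 2 and the lowest to wildtype library 5, and APPko libraries 3 and 6 lay inside the wildtype range, with APPko library 7 level with its upper end. The means were 8.15 ± 1.92 CPM in APPko and 5.95 ± 0.944 CPM in wildtype (SD, n = 8 and 6). The log2 fold change of 0.45 (SE 0.16, 95% interval 0.11 to 0.80) did not pass over all genes (edgeR adjusted p = 0.13). The estimate was positive in all 14 other settings (0.31 to 0.55) and whichever library was left out (0.35 to 0.54), and none of these 28 fits passed it. Of 15 tested genes within 1 Mb of Bace2, 1 fell and none rose (1.41% of all tested genes fell and 0.944% rose). The gene that fell was Zbtb21, at 19.3 to 29.6 CPM in APPko and 42.0 to 149 CPM in wildtype (2.93-fold lower, edgeR adjusted p = 0.0062). A common cause for Zbtb21 and Bace2 was not tested. Zbtb21 passed whichever single library was left out (0.174% to 6.36% of genes passed in those fits). It also passed without wildtype libraries 2 and 3, where 0.147% of genes passed and its log2 fold change was -0.90 against -1.55 with them (edgeR adjusted p = 0.0015). It missed with the replicate block (-1.41, edgeR adjusted p = 0.066).

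Adam17 (ENSMUSG00000052593.16, chromosome 12, 21323509 to 21373632, minus strand) had a lowest value of 15.9, a median of 18.6 and a highest value of 22.0 CPM in APPko, against 16.2, 19.5 and 24.4 CPM in wildtype. The genotypes overlapped nearly throughout, with wildtype libraries 2 and 3 the highest. The log2 fold change was -0.11 (SE 0.11, 95% interval -0.35 to 0.13, edgeR adjusted p = 0.65), and the estimate turned to 0.040 when wildtype libraries 2 and 3 were dropped and to 0.0038 when TMM scaling was.

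Adam9 (ENSMUSG00000031555.15, chromosome 8, 24949611 to 25016927, minus strand) had a lowest value of 34.1, a median of 41.7 and a highest value of 52.3 CPM in APPko, against 32.0, 48.2 and 61.5 CPM in wildtype. Over all libraries the log2 fold change was -0.19 (SE 0.13, 95% interval -0.48 to 0.088, edgeR adjusted p = 0.44). The header suffix divided these values. Among f libraries APPko ranged from 34.1 to 45.0 CPM and wildtype from 50.9 to 61.5 CPM, with no overlap. The share of all genes without overlap among f libraries was not counted, and 15.6% of genes passed in a fit of f libraries alone. Among m libraries the only APPko library had 52.3 CPM and the wildtype libraries had 32.0 to 45.4 CPM.

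In an edgeR fit with genotype, suffix and their interaction, added after these values were seen, the log2 fold change of Adam9 was -0.50 in f libraries (SE 0.12, adjusted p = 0.0098, where 17.4% of all tested genes passed) and 0.43 in m libraries (SE 0.20, adjusted p = 0.44, where 0.00903% passed). The difference between them was 0.93 on the log2 scale (SE 0.23, edgeR adjusted p = 0.048, a threshold that 1.86% of genes passed). Within wildtype, m libraries had less Adam9 than f libraries (log2 difference -0.56, SE 0.15, edgeR adjusted p = 0.044, with 3.39% of genes passing). Wildtype f library 1, which did not stand apart in its TMM factor, had the highest Adam9 value of all 14. The m contrast rests on 1 APPko library. The corresponding differences were 0.57 for Adam10 (adjusted p = 0.20), 0.10 for Adam17 (0.86), -0.15 for Bace1 (0.69) and 0.37 for Bace2 (0.64), none of which passed in that edgeR fit. Adam10 had 98.1 to 118 CPM in f APPko and 142 to 216 CPM in f wildtype libraries (log2 fold change -0.71), and 118 CPM in the m APPko library and 111 to 148 CPM in m wildtype libraries (-0.14).

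**Figure D3:**
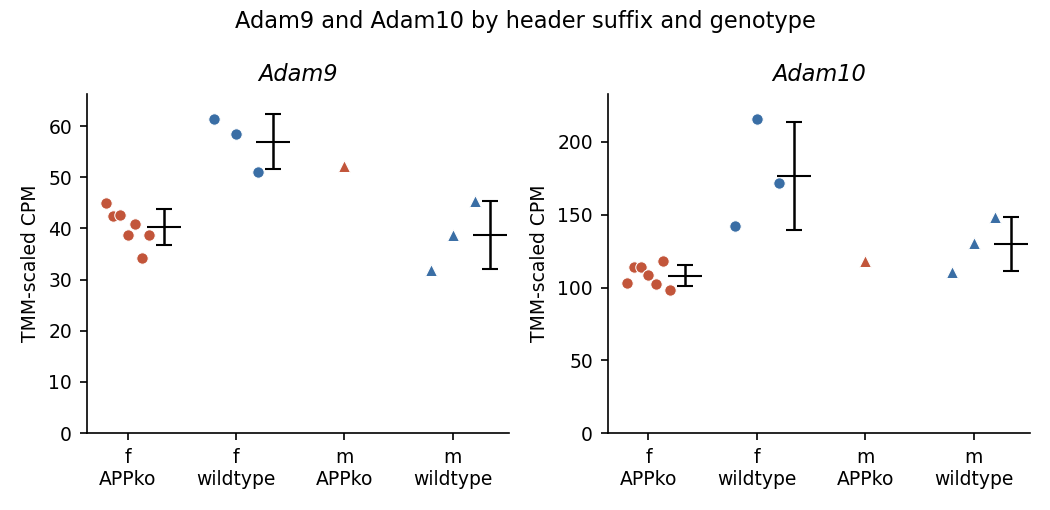
TMM-scaled CPM of Adam9 and Adam10 in each library, split by header suffix and genotype, with the mean and SD where a group holds more than 1 library. In f libraries, where 15.6% of genes passed when fitted alone, both genes lie lower in APPko than in wildtype without overlap. The only m library of APPko lies above the m wildtype libraries for Adam9 and within their range for Adam10.

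**Figure D4:**
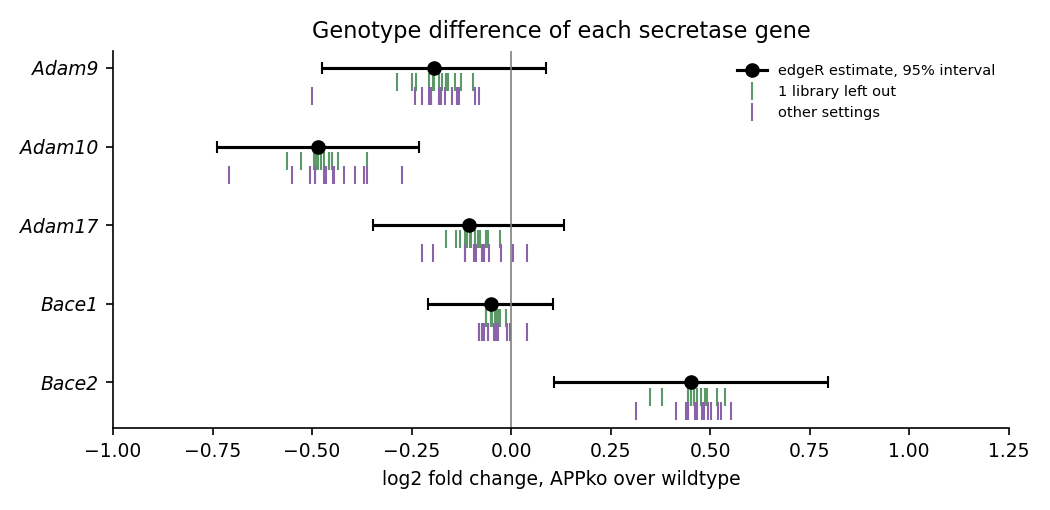
Log2 fold change of each secretase gene, APPko over wildtype, with its 95% interval in the edgeR fit and, as ticks, the estimates without 1 library and under the other settings. The interval of Adam10 lies below 0 and that of Bace2 above it, the interval of Bace1 is the narrowest at -0.21 to 0.11, and the most negative tick of Adam9 and of Adam10 comes from the f libraries alone.

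The 5 genes were compared in pairs over the 14 libraries after the genotype means had been subtracted. Among 10 pairs the closest was Adam9 with Adam10 (Pearson r = 0.64, permutation p = 0.064, adjusted 0.32; Spearman rho = 0.53, permutation p = 0.095, adjusted 0.48), and r was 0.72 without wildtype libraries 1 and 2. For the same pair r was 0.56 without wildtype libraries 2 and 3, with the genotype means recomputed, and 0.51 with total counts in place of TMM. Adam10 with Adam17 gave r = 0.55 (permutation p = 0.11, adjusted 0.35; rho = 0.36, permutation p = 0.26, adjusted 0.61), and without wildtype libraries 2 and 3 it was 0.28 with the genotype means of all libraries kept and 0.052 with the means recomputed, so that relation rested on those libraries. Adam9 with Bace2 gave r = 0.49 (permutation p = 0.055, adjusted 0.32; rho = 0.56, permutation p = 0.037, adjusted 0.37), and 0.40 without wildtype libraries 1 and 2. Bace1 had r between -0.15 and -0.016 with the other 4. With the genotype means of all libraries kept, r with Adam9 was 0.081 without wildtype libraries 1 and 2. Without wildtype libraries 2 and 3 it was 0.25 with Adam10 and 0.19 with Adam17. Without wildtype library 6 and APPko library 1 it was -0.26 with Bace2. No pair passed after adjustment over the 10.

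Other genes followed single members more closely. Given as a description, since each is the highest of 17340 comparisons over the same 14 libraries, which share depth and composition, Adam9 went with Vim, the intermediate filament of astrocytes and progenitors (r = 0.97, rho = 0.94, and r = 0.98 with genotype means subtracted), followed by Prkd3 (0.96) and A730063M14Rik (0.94). Adam10 went with Crebl2 (r = 0.98, rho = 0.92, and 0.96 with genotype means subtracted), Arglu1 (0.96, rho = 0.77) and Gnl3l (0.96, rho = 0.79). With genotype means subtracted, r was 0.91 for both Arglu1 and Gnl3l. Adam17 went with Isoc1 (r = 0.87, rho = 0.82), Egfr, the receptor of several ADAM17-shed ligands (0.86), and Tapt1 (0.84). Bace1 went with Rasl11b (r = 0.88, rho = 0.89), Vapb (0.87, rho = 0.75) and Flrt1 (0.87, rho = 0.88). Bace2 went with F5 (r = 0.84, rho = 0.80, and 0.72 with genotype means subtracted), B3glct (0.83, rho = 0.69) and D630045J12Rik (0.83, rho = 0.95).

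Around the other members, 1 of 14 tested genes within 1 Mb of Adam10 fell (1.41% of all tested genes fell). It was Sltm, an RNA-binding protein gene, with 166 to 181 CPM in APPko and 190 to 247 CPM in wildtype (1.29-fold lower, edgeR adjusted p = 0.034). With single libraries left out Sltm passed in 4 of 14 fits, and in other settings in 8 of 14, missing without wildtype libraries 2 and 3 (edgeR adjusted p = 0.13). Of 30 tested genes near Bace1, 1 rose (0.944% of all tested genes rose). It was Il10ra, the interleukin 10 receptor of immune cells, which rose 2.11-fold (3.00 ± 0.728 CPM in APPko and 1.42 ± 0.452 CPM in wildtype, edgeR adjusted p = 0.028). With single libraries left out Il10ra passed in 8 of 14 fits, and in other settings in 11 of 14, missing without wildtype libraries 2 and 3 (edgeR adjusted p = 0.10). Across all genes, 0.174% to 6.36% passed with single libraries left out and 0.0948% to 15.6% in the other settings. None of 32 tested genes near Adam9 and none of 17 near Adam17 passed (2.35% of all tested genes passed).

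The maturation and transport of the secretases depend on partner proteins, which were read from lists written from general knowledge with earlier results of these data known. Of 87 tested genes in 11 lists of partners, inhibitors, related proteases and substrates, 1 rose and none fell (1.15%, against 2.35% of all tested genes). The median log2 fold change was 0.14 over the 87 genes and -0.013 over all tested genes. Estimates were positive for 54 of the 87 genes and for 48.3% of all tested genes. The genes share the same libraries, so equal signs within a list are not independent.

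The gene that passed was Rhbdf1, which encodes iRhom1, an inactive rhomboid protein that escorts ADAM17 from the endoplasmic reticulum. Its lowest, median and highest values were 8.44, 12.6 and 18.1 CPM in APPko and 3.22, 6.66 and 8.12 CPM in wildtype, so that every APPko library lay above every wildtype library (0.506% of tested genes did so in that direction). It rose 2.16-fold (log2 fold change 1.11, SE 0.21, edgeR adjusted p = 0.019). It passed whichever library was left out (0.174% to 6.36% of genes passed in those fits) and in 13 of 14 other settings (0.0948% to 15.6% of genes over the 14). The exception was the fit without wildtype libraries 2 and 3, which had the lowest wildtype values (log2 fold change 0.88, edgeR adjusted p = 0.062). The other members of the iRhom complex did not pass. Rhbdf2, the iRhom2 gene of myeloid cells, had 0.775 ± 0.285 CPM in APPko and 0.382 ± 0.223 CPM in wildtype (edgeR adjusted p = 0.17), and Frmd8, the cytoplasmic stabiliser of the complex, had 23.5 ± 3.59 CPM in APPko and 18.8 ± 2.28 CPM in wildtype (edgeR adjusted p = 0.14). The summed level of the 7 microglia markers was 389 to 633 CPM in APPko and 227 to 470 CPM in wildtype. The largest of them, C1qb, had 233 ± 45.0 CPM in APPko and 123 ± 63.6 CPM in wildtype, and C1qa had 70.3 ± 13.4 and 30.5 ± 23.1 CPM. Of the 7 estimates 5 were positive, while P2ry12 (22.6 and 27.1 CPM) and Cx3cr1 (39.5 and 40.4 CPM) were lower in APPko. The part of microglia in the values of Rhbdf1, Rhbdf2 and Frmd8 was not tested.

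No gene of the other lists passed, and the genes named from them are those of smallest p. The 5 tested tetraspanins that carry ADAM10 to the cell surface all had positive estimates, with a median log2 fold change of 0.26. Tspan14 led with 9.89 ± 1.58 CPM in APPko and 7.25 ± 2.79 CPM in wildtype (edgeR adjusted p = 0.24), followed by Tspan17 (0.29). Of the proprotein convertases, which remove the prodomains of the ADAM proteases and of BACE1, Furin had 5.40 ± 1.50 CPM in APPko and 3.40 ± 0.779 CPM in wildtype (edgeR adjusted p = 0.082) and Pcsk7 followed (0.31). The metalloprotease inhibitors were led by Timp4, at 76.1 ± 11.6 CPM in APPko and 58.8 ± 8.74 CPM in wildtype (edgeR adjusted p = 0.085), with Timp1 next (0.48).

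Among 13 genes for BACE1 sorting, 5 had positive estimates. Vps29, a retromer subunit, had 457 ± 59.3 CPM in APPko and 670 ± 326 CPM in wildtype, and Rab5a, the early endosome GTPase, had 77.2 ± 13.3 CPM in APPko and 118 ± 60.0 CPM in wildtype (edgeR adjusted p = 0.15 for both). Of 9 further ADAM genes, Adam11 missed the threshold narrowly, with 52.0 ± 8.75 CPM in APPko and 37.2 ± 5.97 CPM in wildtype (edgeR adjusted p = 0.052), and Adam22 had 85.9 ± 10.8 CPM in APPko and 106 ± 7.31 CPM in wildtype (0.092). Both encode catalytically inactive members that act as receptors of the LGI proteins. The other proteases that cut the amyloid precursor protein all had positive estimates (5 of 5 tested, median log2 fold change 0.54). Mmp24, which encodes the eta-secretase MT5-MMP, had 3.57 ± 0.804 CPM in APPko and 2.07 ± 0.690 CPM in wildtype (edgeR adjusted p = 0.065), and Mmp14, its MT1-MMP relative, had 7.56 ± 1.50 CPM in APPko and 4.43 ± 1.72 CPM in wildtype (0.068).

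Substrate genes had estimates of both signs. Of 15 BACE1 substrate genes 7 were positive and the median log2 fold change was -0.0017; Aplp1, an App homologue, had 249 ± 24.1 CPM in APPko and 207 ± 33.0 CPM in wildtype, and Scn2b, a sodium channel beta subunit, had 84.2 ± 8.19 CPM in APPko and 100.1 ± 16.3 CPM in wildtype (edgeR adjusted p = 0.18 for both). Of 15 ADAM10 substrate genes 6 were positive. Trem2, a microglial receptor, had 52.9 ± 9.40 CPM in APPko and 36.1 ± 8.73 CPM in wildtype (edgeR adjusted p = 0.055), and Nlgn1, a postsynaptic adhesion protein, had 187 ± 21.9 CPM in APPko and 304 ± 172 CPM in wildtype (0.11). Of 10 tested ADAM17 substrate genes 8 were positive, with Icam1 at 2.69 ± 0.583 CPM in APPko and 1.60 ± 0.550 CPM in wildtype (edgeR adjusted p = 0.071) and Hbegf, an EGF receptor ligand, at 41.0 ± 13.0 CPM in APPko and 27.1 ± 3.38 CPM in wildtype (0.076). Tnf, the substrate that gave ADAM17 its other name, was below the filter on low counts. Of the BACE2 substrate genes, Il1r2, the decoy interleukin 1 receptor, had 2.09 ± 0.493 CPM in APPko and 1.13 ± 0.496 CPM in wildtype (edgeR adjusted p = 0.065), and Pmel, the pigment cell amyloid protein, had 0.993 ± 0.175 CPM in APPko and 0.748 ± 0.488 CPM in wildtype (0.59).

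**Figure D5:**
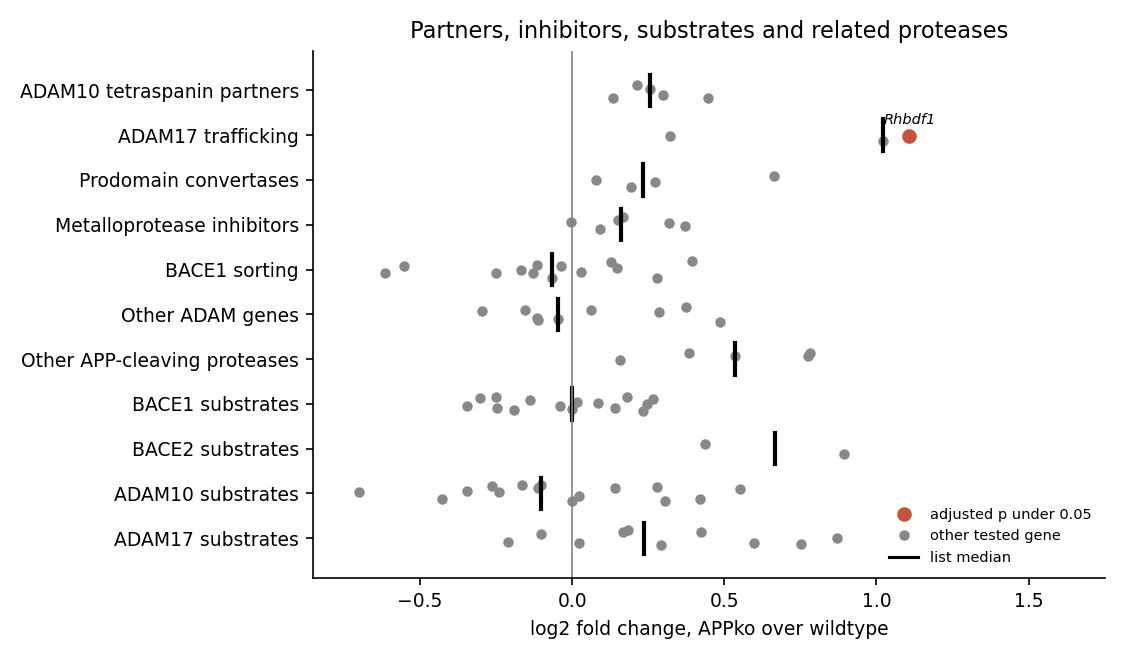
Log2 fold change, APPko over wildtype, of each tested gene in the 11 lists, with a bar at each list's median. Rhbdf1 at 1.11 is the only gene past the threshold, and the lists of BACE1 and ADAM10 substrates spread to both sides of 0.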

How the data were processed

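The authors deposited a table of raw gene counts for each library. The submitters' processing notes name cutadapt 3.5, STAR 2.7.8a, featureCounts 2.0.1 and the build GRCm38 (mm10); settings for strand, multi-mapping reads and duplicates are not given in these sources. Per the labels' protocols, cDNA was amplified over 12 and libraries over 10 PCR cycles; they name no molecular identifiers. Positions and exon lengths came from the annotation deposited by the authors, GC content (97.9% of tested genes) and coding stretches from GENCODE transcripts of the same build.

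Libraries were grouped by title. All 43 pairs of libraries within a genotype differed beyond sampling noise (chi-square 7.76 to 94.1 times its degrees of freedom). Genes were kept by edgeR's filter by genotype, scaled by TMM and compared by edgeR's quasi-likelihood test without covariates (edgeR 4.0.16, limma 3.58.1, DESeq2 1.42.0, sva 3.50.0, R 4.3.3), with Benjamini-Hochberg adjustment over all tested genes at 0.05; the procedure was tested on simulated data. Correlations used log2 CPM (prior count 2) and 100000 permutations within genotype, two-sided. Alternatives were other scalings, filters and tools, covariates, trends over GC content and length (lowess span 0.3), and libraries left out. The members, lists and alternatives were chosen with earlier results of these data known. Named list genes were those past the threshold or, failing that, the 2 with the smallest p (for BACE2 substrates, the 2 tested), for likeness the 3 genes of highest r at a mean of at least 1 CPM, and for position the genes past the threshold within 1 Mb and those with overlapping exons. TPM were computed over exon length. The single markers named, whether past the threshold or not, and Rhbdf2 and Frmd8 were named after their values were seen.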

Additional observations from a re-analysis of the deposited data

Results flagged for a closer look

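In the interaction fit, which was added after the Adam9 values were seen, the genotype contrast of Adam9 was 0.43 in m and -0.50 in f libraries. The difference between them was 0.93 on the log2 scale. Adam9 was lower in 7 of 7 f APPko libraries than in all 3 f wildtype libraries, and higher in the 1 m APPko library than in all 3 m wildtype libraries. How many other genes did the same was not counted, and 15.6% of genes passed in f libraries alone. The m estimate has no replicate in APPko, and whether that library stands for others was not tested. In 12 groups of libraries examined (5 secretase genes and App in 2 genotypes), no single value lay far enough from the others to be singled out.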

How the results depend on the processing

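Adam10 kept its direction in all 28 other fits and lost the threshold with total counts (-0.37), limma's voom (-0.39), no expression filter (-0.44), the replicate block (-0.45), the GC trend removed (-0.36), the length trend removed (-0.51) and without wildtype libraries 2 and 3 (-0.28); without single libraries it ranged from -0.56 to -0.36. The cause of these losses was not tested. Among the settings in which Adam10 passed were the suffix as a covariate (-0.55, edgeR adjusted p = 0.017, where 6.53% of genes passed) and f libraries alone (-0.71, edgeR adjusted p = 0.0022, where 15.6% passed). Adam9 passed in f libraries alone (-0.50, and -0.50 in the interaction fit) and was 0.43 in m libraries. Adam17 changed sign with total counts (0.0038) and without wildtype libraries 2 and 3 (0.040), and Bace1 with total counts (0.039). Bace2 passed in none of the 28. Against 209 higher and 312 lower genes, the counts were 749 and 1052 with DESeq2, 10 and 11 with the replicate block, 718 and 728 with the suffix as a covariate, 1674 and 1998 in f libraries alone, 555 and 581 with 1 surrogate variable, 90 and 115 with the GC trend removed, 139 and 207 with the length trend removed and 19 and 16 without wildtype libraries 2 and 3; lower genes numbered 119 with total counts, 170 with voom and 170 without a filter. Without single libraries they ran from 22 to 735 higher and from 16 to 701 lower. The replicate numbers share no stated source: same-numbered libraries correlated at -0.35 to 0.30 in their deviations, and 2 of 6 APPko libraries correlated best with their own number, so the block is no pairing. Correlations that changed sign, with genotype means recomputed in each setting, were Adam9 with Bace1 (0.042 with total counts, 0.25 without wildtype libraries 2 and 3), Adam10 with Bace1 (0.52 without them), Adam10 with Bace2 (-0.045 and -0.022) and Adam17 with Bace1 (0.17 and 0.34). TPM moved with the length or the gene set used as denominator in 15 of 20 recomputed means. Bace2 had the fewest counts of the 5 genes, 78 to 306 per library.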
